A study of Mus musculus with 12 samples.

Results

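The germinal center (GC) transition without miR-146a was measured as the difference in RNA between GC B cells and naive B cells of mice whose mature B cells lack miR-146a (B-KO). It was described in 6 of the 12 libraries of the series, 3 of B-KO GC B cells and 3 of B-KO naive B cells. The other 6 libraries, 3 of GC B cells and 3 of naive B cells of WT littermates, were used to find which genes keep or lose their fold change. All mice were on the C57BL/6 background, 8 to 10 weeks old, and all cells came from spleen. B-KO mice carry a loxP-flanked miR-146a allele and CD21-cre, a transgene driven by the regulatory elements of a complement receptor gene of mature B cells, so that deletion starts in the mature B cell and is not limited to the GC. GC B cells were sorted as B220+PNA+GL7+ cells on day 14 of the response to sheep red blood cells (SRBC), and naive B cells as B220+ cells of mice that had not been immunized. B220 is also carried by GC B cells and by plasmacytoid dendritic cells, which the naive gate therefore does not remove. The study calls the 3 libraries of a group biological replicates, and whether a library came from a single mouse or a pool is not given in the sources used here. A value is given as RPKM, the reads of a transcript per kilobase, scaled to 10000000 per library. The transcript with the highest mean over the 12 libraries stood for each of 24063 gene symbols, and 13704 symbols with at least 1 RPKM in at least 3 libraries were tested.

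In a GC, activated B cells divide rapidly, mutate their antibody genes and are selected for affinity. BCL6 is the transcription factor that holds this program in place, and the cells lose the homing receptors and quiescence genes of the recirculating naive B cell. The microRNA miR-146a is induced by NFκB and interferon γ signals and is known to repress the signaling proteins TRAF6, IRAK1 and RELB. Its relative miR-146b, which lies on another chromosome, was not targeted in these mice. Both mature sequences are shown because the remaining microRNA shares the seed (bases 2 to 8, in capitals) with the deleted one. Sequences are from RefSeq (GRCm38.p6).
mmu-miR-146a-5p, chr11:43374435-43374456, minus strand: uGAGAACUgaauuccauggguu
mmu-miR-146b-5p, chr19:46342790-46342811, plus strand: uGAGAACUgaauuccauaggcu
Counted from the 5′ end, miR-146b-5p differs from miR-146a-5p by G18A and U21C, and these were the only 2 of 1738 mature mouse microRNAs in the table with this seed. The hairpin transcript Mir146 (64 bases in the files) was listed with 0, 0 and 1 reads in B-KO GC libraries, 0, 0 and 0 in B-KO naive libraries, 0, 4 and 0 in WT GC libraries and 2, 0 and 0 in WT naive libraries. Reads this few give no check of the deletion.

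The 12 libraries held 22945634 to 39118224 reads assigned to transcripts. To see where each library lay, it was projected on the line from the mean of WT naive B cells (0) to the mean of WT GC B cells (1) over all tested genes. B-KO GC libraries lay at 0.948, 0.817 and 1.02, against 0.248, 0.135 and 0.034 for B-KO naive libraries. WT GC libraries lay at 1.05, 1.06 and 0.890, against -0.033, 0.012 and 0.020 for WT naive libraries. B-KO naive library 1 and B-KO GC library 2 were thus the B-KO libraries nearest to the other cell type. Y-linked genes were expressed in B-KO GC libraries 1 and 2 and WT GC library 3 alone (Ddx3y 281, 281 and 0 RPKM in B-KO GC, 0 in each B-KO naive library, 0.063, 0.19 and 389 in WT GC and at most 0.071 in WT naive). Xist, the RNA of the inactive X chromosome, was high in every naive library and stood at 0.45, 187 and 1335 RPKM in B-KO GC libraries, so that library 2 held both Xist and Y-linked RNA. Results that rest on these libraries are given with and without them, and with the share of Y-linked RNA as a covariate in the fit of all 12 libraries, all chosen after seeing the data.

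**Figure D1:**
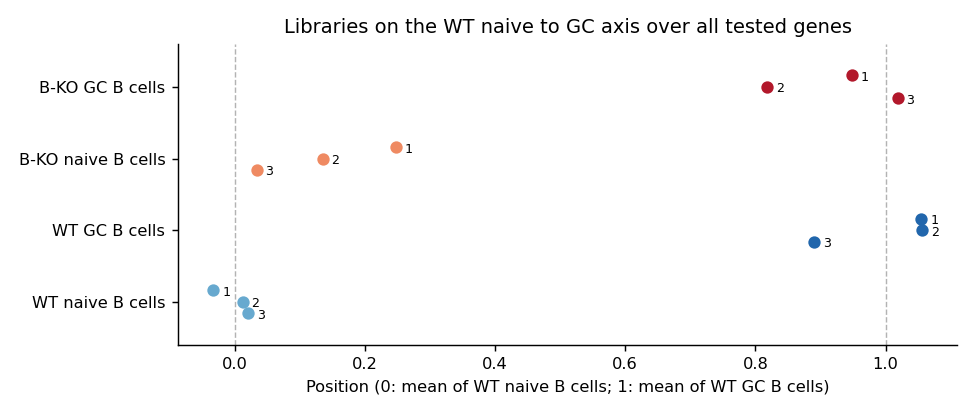
Position of each library (numbered points) on the axis from the mean of WT naive B cells (0) to the mean of WT GC B cells (1), over 13704 genes. The B-KO naive libraries lie at 0.248, 0.135 and 0.034, all to the right of the WT naive libraries (at most 0.020), and B-KO GC library 2 lies at 0.817, to the left of all WT GC libraries. The WT libraries define the axis, which draws other libraries inward, so a gap as small as 0.034 against 0.020 cannot be read.

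The labels were borne out by their markers. Bcl6 was 856, 647 and 826 RPKM in B-KO GC B cells, against 242, 209 and 214 RPKM in B-KO naive B cells, a log2 fold change of 1.80 ± 0.13 (SE; adjusted p = 7.33e-06). Fcer2a, the low-affinity IgE receptor CD23 of follicular B cells, was 875, 1070.2 and 882 RPKM in B-KO GC B cells, against 2199, 2551 and 2929 RPKM in B-KO naive B cells (log2-scale change -1.44 ± 0.13, adjusted p = 1.48e-05). Neither gene overlapped between the groups. In WT cells the log2 fold change was 1.87 ± 0.13 for Bcl6 and -1.67 ± 0.13 for Fcer2a, and the difference between genotypes was -0.069 (95% interval -0.47 to 0.34) and 0.24 (-0.18 to 0.65), both spanning 0. All of these values, and every fold change below, are on the log2(RPKM + 1) scale, which understates the change of low genes. The pan-B gene Ms4a1 (CD20) was 6985, 6849 and 6884 RPKM in B-KO GC B cells and 5427, 7225 and 7978 RPKM in B-KO naive B cells (log2-scale change 0.025 ± 0.16, adjusted p = 0.907), with overlapping groups.

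Of the 13704 genes tested, 4116 rose (30%) and 3768 fell (27.5%) in B-KO GC B cells against B-KO naive B cells at an adjusted p under 0.05, 57.5% in either direction. The 3 libraries of each group did not overlap for 64.1% of all genes (33.4% with the GC libraries higher and 30.7% with them lower). A change of at least 2-fold (log2 fold change of at least 1 either way and called) was seen for 19.9% of genes, 1429 higher and 1294 lower. In WT cells 31.7% rose, 30.2% fell and 24.1% changed at least 2-fold. The counts of members below are read against these shares. The median log2 fold change of all genes was 0.015 in B-KO and 0.0054 in WT.

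Genes that define GC B cells rose steeply. Of 29 genes of the GC B cell list, 18 rose and 3 fell (17 and 4 in WT), with a median log2 fold change of 1.80 (1.87 in WT), against 0.015 over all genes. The difference between genotypes was negative for 25 of the 29 genes, with a median of -0.41. It was at an unadjusted limma p under 0.05 for 8 (background 3.37% of all genes) and past the adjusted threshold for none. Of all genes that rose at least 2-fold in WT, 90.6% likewise rose by less in B-KO. The median of B-KO minus WT over the list was -0.076 in GC and 0.34 in naive libraries. S1pr2, the sphingosine receptor that confines B cells to the follicle center, was 1083, 1071 and 1297 RPKM in B-KO GC and 196, 79.5 and 23.1 RPKM in B-KO naive B cells (3.98 ± 0.63, adjusted p = 0.000335; 6.02 ± 0.63 in WT). The GC libraries were alike and the naive libraries were not, with library 1 highest. Rgs13, a GTPase activator that dampens chemokine signals, was 1599, 1021 and 1593 RPKM in B-KO GC and 157, 73.5 and 53.9 RPKM in B-KO naive B cells (3.99 ± 0.45). Mef2b, a transcription factor that induces Bcl6, was 1382, 1317 and 1564 RPKM in B-KO GC and 247, 92.8 and 44.9 RPKM in B-KO naive B cells (3.80 ± 0.54). The death receptor gene Fas was 669, 489.5 and 641 RPKM in B-KO GC and 119.7, 86.2 and 47.9 RPKM in B-KO naive B cells (2.89 ± 0.29). The same step from naive library 1 down to library 3 was present in each of them. Other members with large rises were Gcsam (3.86 ± 0.78), Mybl1 (3.84 ± 0.62), Neil1 (3.01 ± 0.23), Efnb1 (3.80 ± 0.28) and Plxnb2 (3.23 ± 0.32). The 3 members that fell were Ebf1 (-0.75 ± 0.095), Bcl11a (-0.35 ± 0.07) and Nedd9 (-0.41 ± 0.12), which encode early B-lineage transcription factors and an adhesion scaffold. Cxcr4 (-0.40 ± 0.23, adjusted p = 0.156), Cd83 (0.26 ± 0.31) and Il21r (0.15 ± 0.14) were not called, and B-KO GC library 2 was the highest of the GC libraries in all of them.

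**Figure D2:**
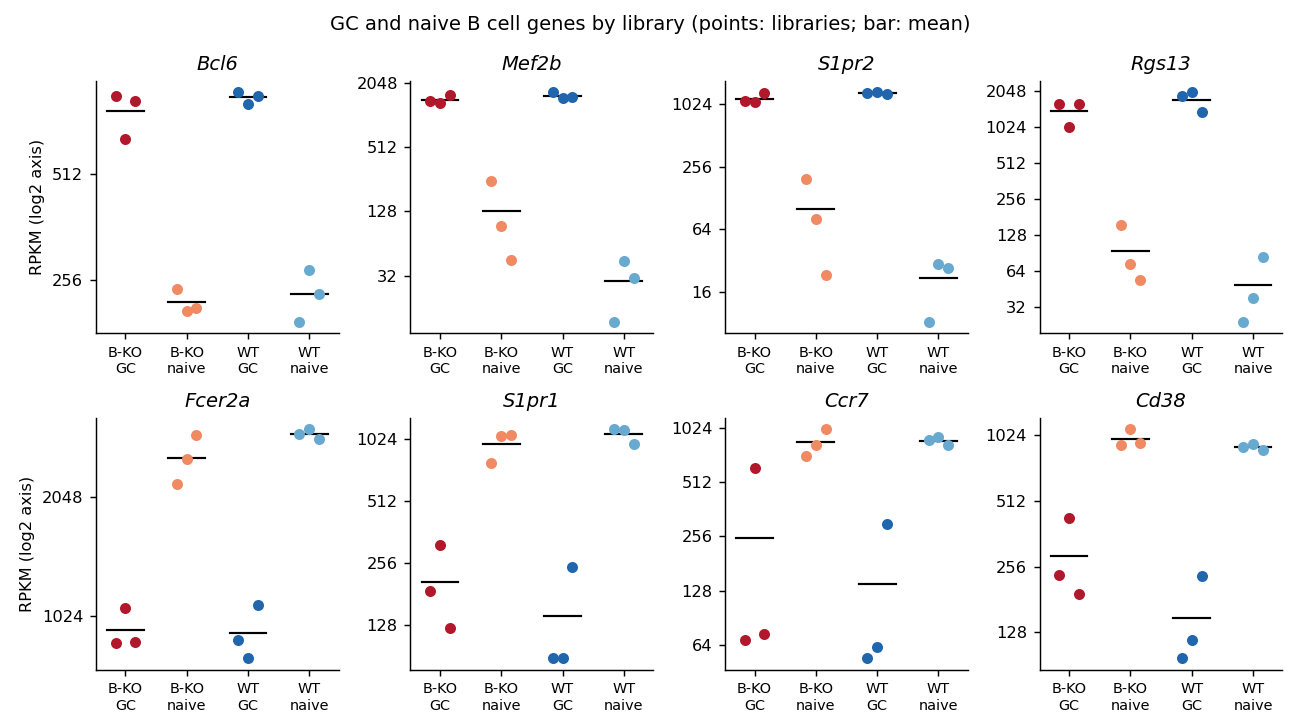
RPKM (log2 axis) of GC genes (top row) and naive genes (bottom row) in each library, with the 3 libraries of a group from left (1) to right (3) and a bar at the group mean. Mef2b is 1382, 1317 and 1564 in B-KO GC and 247, 92.8 and 44.9 in B-KO naive B cells, and Ccr7 is 67.9, 615 and 73.6 in B-KO GC and 717, 824 and 1005 in B-KO naive B cells, with GC library 2 close to the naive level.

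The GC genes of the list were already present in B-KO naive libraries at unequal levels. Their mean log2 level was 8.29, 7.85 and 7.37 in B-KO naive libraries 1 to 3 and 6.81, 7.40 and 7.40 in WT naive libraries. In GC libraries it was 9.63, 9.49 and 9.69 for B-KO and 9.71, 9.74 and 9.64 for WT. The list's summed RPKM was 17815 to 19443 in B-KO naive libraries and 15957 to 18108 in WT naive libraries, and no member was at 0 in any naive library. The part of GC B cells within the B220+ gate in the fold changes was not tested. In bulk samples, a higher share of a cell type and more RNA per cell cannot be told apart, nor can fewer cells and less RNA per cell. Without B-KO naive library 1 and B-KO GC library 2, 17 of the 29 genes rose and 4 fell, with a median of 1.99, and without the 3 libraries with Y-linked RNA 17 rose and 4 fell (18 and 4 with the Y-linked share as a covariate). In these 3 settings the median difference between genotypes was -0.25, -0.32 and -0.36. The number of genes at an unadjusted p under 0.05 was 2, 1 and 9.

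The genes of mutation and its repair rose almost as a block, 19 of 20 in B-KO (18 in WT), with a median of 1.31 in B-KO and 1.30 in WT. Ung, which removes uracil from DNA, was 159.7, 147 and 187 RPKM in B-KO GC and 58.0, 40.5 and 32.6 RPKM in B-KO naive B cells (1.92 ± 0.20, adjusted p = 2.64e-05). Polh, the translesion polymerase that writes A:T mutations, was 539, 332 and 562 RPKM in B-KO GC and 126, 105 and 74.0 RPKM in B-KO naive B cells (2.21 ± 0.29). All 20 genes had separate groups. Among mismatch repair genes Msh6 (1.61 ± 0.14) and Exo1 (2.53 ± 0.31) had larger rises than Pms2 (0.59 ± 0.11). Hmces, which shields abasic sites, was 2623, 1867 and 2888 RPKM in B-KO GC and 449.9, 331 and 192 RPKM in B-KO naive B cells (2.98 ± 0.28). Smug1, another uracil glycosylase, was the exception and fell, with 22.7, 22.6 and 28.0 RPKM in B-KO GC and 43.1, 51.7 and 57.3 RPKM in B-KO naive B cells (-1.02 ± 0.14, adjusted p = 0.000124; -1.09 ± 0.14 in WT).

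All 30 mitosis and spindle genes and all 30 DNA replication genes rose in both genotypes. The median log2 fold change of the mitosis genes was 2.99 in B-KO and 3.79 in WT, and that of the replication genes 2.31 and 2.73. Mki67, the nuclear antigen of cycling cells, was 1475, 1173 and 1844 RPKM in B-KO GC and 272, 169.9 and 68.6 RPKM in B-KO naive B cells (3.31 ± 0.42, adjusted p = 8.00e-05). Plk1, a mitotic kinase, was 304, 153 and 307 RPKM in B-KO GC and 38.4, 21.2 and 10.3 RPKM in B-KO naive B cells (3.50 ± 0.47). Ccnb2, which encodes cyclin B2, was 722, 421 and 717 RPKM in B-KO GC and 113, 62.5 and 27.3 RPKM in B-KO naive B cells (3.35 ± 0.47). GC library 2 was lowest and naive library 1 highest in all of these. Of the replication genes, Mcm6 of the MCM helicase was 1601, 1447 and 1728 RPKM in B-KO GC and 434, 319 and 223 RPKM in B-KO naive B cells (2.34 ± 0.20, adjusted p = 1.29e-05). The licensing factor Cdc6 (3.15 ± 0.36), the nucleotide reductase subunit Rrm2 (3.13 ± 0.39) and Mcm10 (3.08 ± 0.41) rose most, and Cdt1 (0.62 ± 0.14) and Ccne1 (1.03 ± 0.18) least. The difference between genotypes was negative for every gene of both lists (median -0.82 for mitosis and -0.41 for replication), with 0 of 60 at an unadjusted p under 0.05. Among all genes that rose at least 2-fold in WT, 90.6% likewise rose by less in B-KO. In GC libraries alone B-KO and WT were close (median difference -0.076 for mitosis genes), while B-KO naive libraries were above WT naive libraries by 0.72. Without B-KO naive library 1 and B-KO GC library 2 the median was 3.52 for mitosis genes and the median difference -0.27.

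The promoters of these 60 genes were searched for letters that played no part in choosing them, on both strands of the RefSeq windows from 250 bases before to 50 after the start. CCAAT, the letters of the NF-Y box, was in 21 of 27 promoters of 25 matched mitosis genes (77.8%) and in 17 of 29 promoters of 24 matched replication genes (58.6%), against 37.4% of all 32851 promoters and 37.9% of the 12466 promoters of tested genes. TTTGAA, the letters of the cell cycle homology region (CHR) bound by DREAM and MuvB complexes, was in 20 of 27 mitosis (74.1%) and 3 of 29 replication promoters (10.3%), against 17.9% of all and 12.3% of those of tested genes. Both together were in 18 of 27 (66.7%) and 2 of 29 (6.90%), against 6.95% of all and 4.91% of those of tested genes. The E2F letters TTTGGCGC or TTTCCCGC were in 8 of 29 replication promoters (27.6%) and in 0 of 27 mitosis promoters, against 1.56% of all and 2.79% of those of tested genes. A match is a description of letters, not a shown site. CCAAT was thus frequent in both lists, and TTTGAA and the E2F letters differed between them. The promoters of Ccnb2 and Plk1, with CCAAT and TTTGAA in capitals, and of Mcm6, with TTTGGCGC and CCAAT (read as ATTGG on this strand) in capitals, are shown as examples from genes that rose together.
Ccnb2, chr9:70421505-70421804, minus strand: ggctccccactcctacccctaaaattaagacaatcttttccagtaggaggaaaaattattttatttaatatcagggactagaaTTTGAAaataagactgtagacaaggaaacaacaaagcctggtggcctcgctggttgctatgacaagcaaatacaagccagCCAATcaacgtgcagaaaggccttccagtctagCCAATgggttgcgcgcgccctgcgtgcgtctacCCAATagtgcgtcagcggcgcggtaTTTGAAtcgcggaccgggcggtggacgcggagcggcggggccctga
Plk1, chr7:122159185-122159484, plus strand: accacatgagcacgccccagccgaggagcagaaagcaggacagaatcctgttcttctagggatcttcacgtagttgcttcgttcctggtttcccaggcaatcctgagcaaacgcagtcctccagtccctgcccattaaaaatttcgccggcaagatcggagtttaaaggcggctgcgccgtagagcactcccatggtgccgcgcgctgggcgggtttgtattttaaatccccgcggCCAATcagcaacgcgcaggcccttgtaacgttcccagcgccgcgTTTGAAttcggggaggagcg
Mcm6, chr1:128359656-128359955, minus strand: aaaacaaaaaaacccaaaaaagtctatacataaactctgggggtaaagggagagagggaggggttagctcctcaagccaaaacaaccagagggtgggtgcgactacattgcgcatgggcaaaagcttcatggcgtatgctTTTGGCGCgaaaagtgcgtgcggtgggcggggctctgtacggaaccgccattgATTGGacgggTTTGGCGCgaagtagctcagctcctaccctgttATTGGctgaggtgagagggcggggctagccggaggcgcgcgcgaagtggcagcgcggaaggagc
Ccnb2 holds CCAAT at 3 places and TTTGAA at 2, Plk1 holds each once, and Mcm6 holds TTTGGCGC at 2 places and CCAAT, on the other strand, at 2 places.

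The cell cycle regulators divided in both directions, 8 of 21 higher and 8 lower (9 and 7 in WT). Ccnd3, the D-type cyclin of GC B cells, was 1001, 713 and 1089 RPKM in B-KO GC and 309, 233 and 239 RPKM in B-KO naive B cells (1.83 ± 0.20), while Ccnd2 was 63.4, 123 and 59.2 RPKM in B-KO GC and 154, 208 and 195 RPKM in B-KO naive B cells (-1.24 ± 0.27). The CDK inhibitor Cdkn1b (p27) was 114, 198 and 92.7 RPKM in B-KO GC and 487, 499 and 524 RPKM in B-KO naive B cells (-1.97 ± 0.26). So cyclin D3 RNA was gained where cyclin D2 and p27 RNA were lower. The retinoblastoma gene Rb1 fell (-1.42 ± 0.14) while its relative Rbl1 rose (1.44 ± 0.17). Myc was 189, 435 and 171 RPKM in B-KO GC and 287, 217 and 255 RPKM in B-KO naive B cells (-0.057 ± 0.47, adjusted p = 0.926), with GC library 2 above all naive libraries and libraries 1 and 3 below.

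Energy and sterol genes rose to a smaller extent. Of 29 oxidative phosphorylation genes 26 rose and none fell, with a median of 0.57 in B-KO and 0.56 in WT and members between 0.10 and 0.95. Sdhb of complex II was 1121, 960.0 and 1099 RPKM in B-KO GC and 537, 528 and 573 RPKM in B-KO naive B cells (0.95 ± 0.11), and the ATP synthase subunit Atp5b was 4023, 3607 and 4223 RPKM in B-KO GC and 2324, 2152 and 2017 RPKM in B-KO naive B cells (0.87 ± 0.10). These groups were far apart relative to their spread. Of 21 glycolysis genes 14 rose and 3 fell, with a median of 0.68. Ldha, lactate dehydrogenase A, was 1289, 1291 and 1490.2 RPKM in B-KO GC and 812, 643 and 578 RPKM in B-KO naive B cells (1.01 ± 0.13), and the lactate transporter Slc16a1 was 77.4, 109.9 and 99.7 RPKM in B-KO GC and 38.0, 37.6 and 43.4 RPKM in B-KO naive B cells (1.24 ± 0.12). Without the 3 libraries with Y-linked RNA, 9 glycolysis genes rose, and 13 with the Y-linked share as a covariate. The members that fell were the glucose transporter Slc2a3 (-1.27 ± 0.11), Hk1 (-0.39 ± 0.099) and Ldhb (-1.71 ± 0.22). Gapdh, Pgk1 and Pgam1 rose but stood at 5.49 to 56.4 RPKM, and reads of these genes may be shared with processed copies, so their levels are uncertain. Of 21 cholesterol synthesis genes 19 rose and 1 fell. The squalene epoxidase Sqle was 192, 165 and 232 RPKM in B-KO GC and 56.4, 47.4 and 46.1 RPKM in B-KO naive B cells (1.94 ± 0.15, adjusted p = 9.73e-06). The median of the list was 0.94 in B-KO and 1.21 in WT. Among all genes that rose at least 2-fold in WT, 90.6% rose by less in B-KO, a negative difference. In this list the difference was negative for 20 of 21 genes, at an unadjusted p under 0.05 for 6 (for Cyp51 -0.53, with an unadjusted p of 0.0163) and past the adjusted threshold for none. Here B-KO and WT naive libraries were close (median 0.050) and B-KO GC libraries were below WT GC libraries by 0.29. Without B-KO naive library 1 and B-KO GC library 2 the median difference was -0.25, and 0 of 21 reached an unadjusted p of 0.05. Without the 3 libraries with Y-linked RNA it was -0.12, also with 0 of 21, and with the Y-linked share as a covariate it was -0.28, with 7 of 21. Ebp was the member that fell (-0.27 ± 0.10).

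Naive follicular genes fell in B-KO as in WT, 26 of 30 in each genotype, with a median of -1.54 in B-KO and -1.63 in WT. The egress receptor S1pr1 was 186, 311 and 123 RPKM in B-KO GC and 779.5, 1047 and 1070.0 RPKM in B-KO naive B cells (-2.31 ± 0.39, adjusted p = 0.000518). Cd38, an ectoenzyme that mouse GC B cells lose, was 235, 428 and 192 RPKM in B-KO GC and 915, 1085 and 939.7 RPKM in B-KO naive B cells (-1.86 ± 0.32). GC library 2 was the highest GC library in each, and still under every naive library. Ccr7, the receptor that draws B cells to the T zone, was 67.9, 615 and 73.6 RPKM in B-KO GC and 717, 824 and 1005 RPKM in B-KO naive B cells (-2.52 ± 0.79, adjusted p = 0.0184), and the quiescence factor Klf2 was 109, 630.4 and 110.4 RPKM in B-KO GC and 937, 894 and 1445 RPKM in B-KO naive B cells (-2.43 ± 0.74). In these genes library 2 lay several times above the other GC libraries, near the naive level. Klf3 (-2.89 ± 0.28), Cd55 (-2.88 ± 0.30), Itgb7 (-2.60 ± 0.37), Satb1 (-2.37 ± 0.30) and Bcl2 (-2.28 ± 0.29) fell with groups apart. Zbtb20 went the other way, with 95.3, 112 and 107 RPKM in B-KO GC and 53.6, 37.7 and 29.5 RPKM in B-KO naive B cells (1.39 ± 0.17; 2.02 ± 0.17 in WT), and Foxo1 (0.11 ± 0.071), Cd69 (-1.32 ± 0.79) and Vpreb3 (0.22 ± 0.28) were not called in either direction. The mean log2 level of the list was 7.58, 8.34 and 7.48 in B-KO GC libraries and 9.20, 9.25 and 9.37 in B-KO naive libraries. Without GC library 2 the median was -1.99, and 27 of 30 fell.

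Of 17 genes in the list of receptors for position in the follicle and their signaling partners, 10 fell and 3 rose (the same numbers in WT). Gpr183 (EBI2), which keeps B cells at the outer follicle, was 44.4, 179 and 41.4 RPKM in B-KO GC and 337, 323 and 369 RPKM in B-KO naive B cells (-2.29 ± 0.56). Gpr174 (-2.67 ± 0.21), Ccr6 (-1.82 ± 0.43), S1pr4 (-1.89 ± 0.15), Cnr2 (-1.49 ± 0.16) and Cxcr5 (-0.81 ± 0.096), receptors for lysophosphatidylserine, CCL20, sphingosine phosphate, cannabinoids and CXCL13, also fell. The risers were S1pr2, Rgs13 and Gna13 (1.11 ± 0.11), the G protein through which S1PR2 acts, which was 575, 743 and 699 RPKM in B-KO GC and 355, 294 and 285 RPKM in B-KO naive B cells. Of 17 adhesion genes 8 fell and 5 rose (9 and 3 without the 3 libraries with Y-linked RNA, 9 and 4 with the Y-linked share as a covariate). Itga4 (-1.71 ± 0.22), Selplg (-1.64 ± 0.27) and Pecam1 (-1.46 ± 0.18) fell, and Itgb1 (0.90 ± 0.16), Itgb2 (0.49 ± 0.13) and Icam1 (0.65 ± 0.15) rose.

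**Figure D3:**
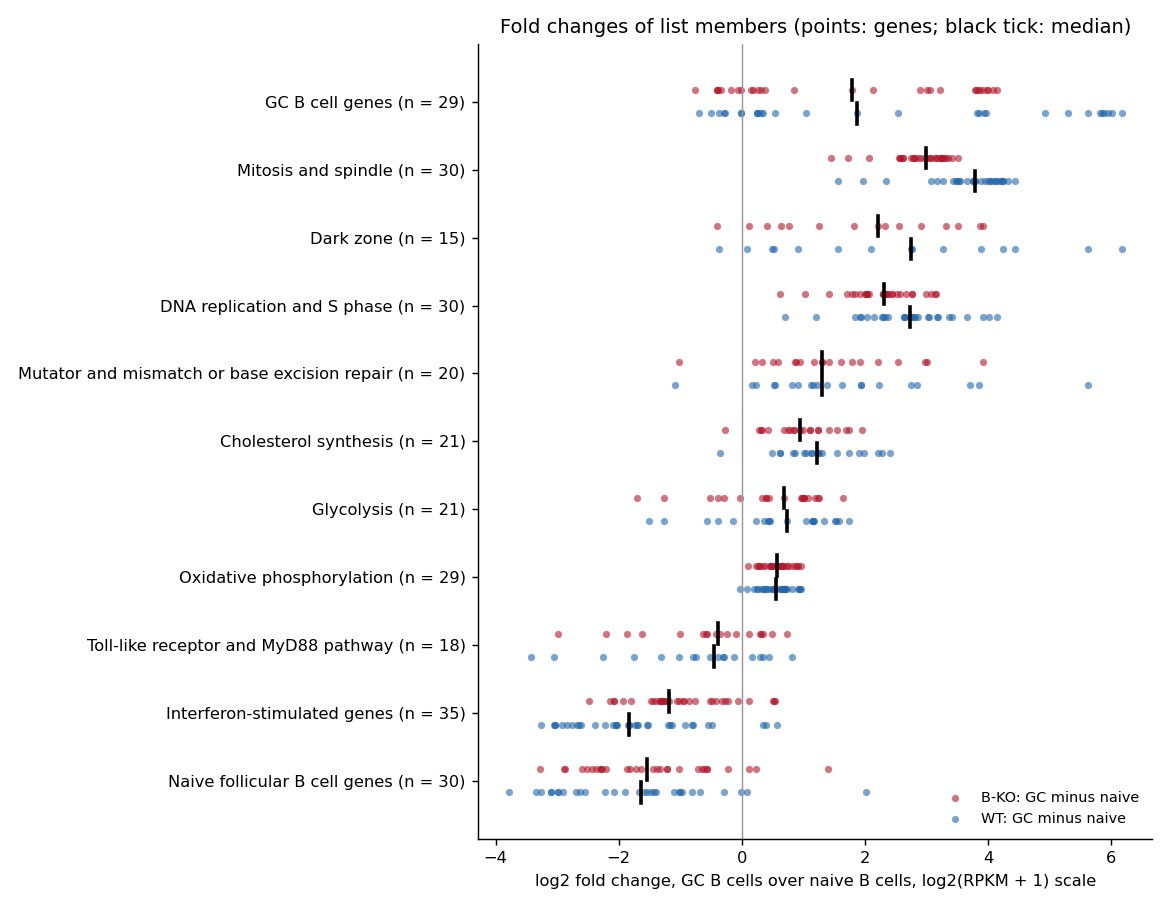
log2 fold change (GC B cells over naive B cells) of each tested member of 11 gene lists, B-KO above WT in each pair, with a black tick at the median. Mitosis genes center at 2.99 in B-KO and 3.79 in WT, and interferon-stimulated genes at -1.18 in B-KO and -1.84 in WT, while the medians of the mutator and oxidative phosphorylation lists nearly coincide.

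Receptor signaling components changed less. Of 24 B cell receptor genes 12 fell and 4 rose, with a median of -0.27. Cd79a, the Igα chain, was 3898, 4302 and 3129.8 RPKM in B-KO GC and 5042, 5684 and 6189 RPKM in B-KO naive B cells (-0.59 ± 0.14, adjusted p = 0.00361), and Malt1, a paracaspase, was 314, 419.7 and 312 RPKM in B-KO GC and 696, 692 and 664 RPKM in B-KO naive B cells (-0.98 ± 0.13). The risers were Fyn (0.61 ± 0.088), Plcg2 (0.62 ± 0.077), Pik3ap1 (0.65 ± 0.065) and Blnk (0.32 ± 0.098). Of 19 CD40 pathway genes 6 fell and 3 rose (1 rose without B-KO naive library 2). Without the 3 libraries with Y-linked RNA 6 fell and 1 rose, and with the Y-linked share as a covariate 7 fell and 2 rose. Cd40 itself was 389, 404 and 349 RPKM in B-KO GC and 494, 537 and 579 RPKM in B-KO naive B cells (-0.49 ± 0.089, adjusted p = 0.000768; -0.63 ± 0.089 in WT). Traf1, an NFκB-induced adaptor, was 395, 358 and 341 RPKM in B-KO GC and 268, 173 and 113 RPKM in B-KO naive B cells (1.06 ± 0.25), and Ikbkb, which encodes IKKβ, was 284, 339 and 276 RPKM in B-KO GC and 656, 658 and 655 RPKM in B-KO naive B cells (-1.13 ± 0.088). IKKβ RNA was thus lower in every B-KO GC library than in any B-KO naive library. Of 11 NFκB subunits and IκB genes 5 fell and none rose in B-KO (3 and none in WT). They were Nfkb2 (-0.65 ± 0.15), Relb (-0.62 ± 0.13), Bcl3 (-0.68 ± 0.19), Nfkb1 (-0.54 ± 0.086) and Rela (-0.31 ± 0.10). Rel, the subunit c-Rel, was 282, 663 and 291 RPKM in B-KO GC and 338, 354 and 398 RPKM in B-KO naive B cells (0.064 ± 0.32, adjusted p = 0.879), with GC library 2 above and libraries 1 and 3 below every naive library. Without GC library 2 the list's median was -0.71, against -0.37 with it, and without the 3 libraries with Y-linked RNA 10 of the 11 fell (7 with the Y-linked share as a covariate). Of 18 Toll-like receptor pathway genes 10 fell and 4 rose (12 and 3 in WT). The inhibitory kinase homolog Irak3 was 18.4, 29.1 and 14.7 RPKM in B-KO GC and 175, 155 and 166 RPKM in B-KO naive B cells (-2.99 ± 0.32), and the RNA sensor Tlr7 was 45.5, 80.3 and 31.0 RPKM in B-KO GC and 188, 229 and 272 RPKM in B-KO naive B cells (-2.21 ± 0.35; -3.05 ± 0.35 in WT). Myd88 rose slightly (0.30 ± 0.077).

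Of 13 tested genes (of 14) that the literature names as miR-146a targets, 6 fell and 2 rose in B-KO (9 and 1 in WT), with a median of -0.24 in B-KO and -0.30 in WT. Traf6, the ubiquitin ligase of the CD40 and Toll pathways, was 112, 122 and 105 RPKM in B-KO GC and 112, 112 and 112 RPKM in B-KO naive B cells (0.0091 ± 0.086, adjusted p = 0.937), against 103, 82.5 and 95.2 RPKM in WT GC and 112, 110.1 and 112 RPKM in WT naive B cells (-0.25 ± 0.086). The difference was 0.26 (95% interval -0.0089 to 0.53, unadjusted p = 0.0567) and did not pass the adjusted threshold. Irak1 (-0.24 ± 0.096 in B-KO, -0.30 ± 0.096 in WT), Chuk (-0.11 ± 0.058 and -0.16 ± 0.058), Relb (-0.62 ± 0.13 and -0.54 ± 0.13) and Rel (0.064 ± 0.32 and 0.068 ± 0.32) gave nearly the same value in both genotypes, and of these 4 Relb alone was called in B-KO. In GC B cells alone, every B-KO library was above every WT library for 5 of the 13 genes (38.5%), against 6.08% of all genes, and 2 of the 13 had a difference of fold changes at an unadjusted p under 0.05, against 3.37% of all genes. Traf6, Irak1, Chuk and Icos were among the 5. Irak1, the kinase that acts with TRAF6, was 293, 316 and 294 RPKM in B-KO GC and 269, 241 and 281 RPKM in WT GC B cells, and Chuk, which encodes IKKα, was 232, 243 and 228 RPKM in B-KO GC and 205, 208 and 219 RPKM in WT GC B cells. The median of B-KO minus WT over the 13 genes was 0.15 in GC and 0.055 in naive B cells. Irak2 (-1.62 ± 0.28) and Notch1 (-1.19 ± 0.26) fell most, Kdm2b rose (0.37 ± 0.1), and Icos rose (1.0 ± 0.25) at 1.37, 2.83 and 1.02 RPKM in B-KO GC and 0.23, 0.33 and 0.4 RPKM in B-KO naive B cells, a level of few reads. Without the 3 libraries with Y-linked RNA none of the 13 rose, and with the Y-linked share as a covariate 2 rose. The number with an unadjusted p of the difference under 0.05 was 1 and 2 in these settings. It was 1 without B-KO naive library 1 and B-KO GC library 2. With all libraries, none of the 13 passed the adjusted threshold for the difference.

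BCL2 family genes changed in both directions. Bcl2 was 34.2, 43.4 and 20.6 RPKM in B-KO GC and 154, 156 and 159 RPKM in B-KO naive B cells (-2.28 ± 0.29), whereas Bcl2l1 (BCL-XL) was 60.1, 50.5 and 56.5 RPKM in B-KO GC and 20.5, 18.9 and 17.0 RPKM in B-KO naive B cells (1.52 ± 0.14). The death effectors Bak1 (1.10 ± 0.097), Bad (1.13 ± 0.13) and Bid (0.99 ± 0.093) rose, and in all 7 of 16 family members rose and 3 fell (9 and 3 in WT). Reads of Bcl2a1a, Bcl2a1b and Bcl2a1d, near-identical copies, cannot be told apart with certainty. In the PI3K pathway 9 of 23 genes fell and 3 rose. Akt1 was 994, 753 and 969.7 RPKM in B-KO GC and 371, 330.3 and 309.8 RPKM in B-KO naive B cells (1.42 ± 0.11), with groups apart.

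Among 25 transcription factors of B cell fate 10 rose and 3 fell (13 and 4 in WT). Bach2, a repressor that holds back plasma cell differentiation, was 446, 428 and 525 RPKM in B-KO GC and 307, 299.6 and 288 RPKM in B-KO naive B cells (0.64 ± 0.087; 0.91 ± 0.087 in WT, unadjusted p of the difference 0.049). Pou2af1 (0.85 ± 0.16), Ikzf1 (0.65 ± 0.078) and Spi1 (0.51 ± 0.10), cofactor or factors of B cell gene expression, also rose. Irf4 was 173, 579 and 139 RPKM in B-KO GC and 326, 379.6 and 414 RPKM in B-KO naive B cells (-0.63 ± 0.56, adjusted p = 0.355) and Prdm1 (BLIMP-1) was 10.7, 62.7 and 27.7 RPKM in B-KO GC and 19.9, 21.4 and 12.8 RPKM in B-KO naive B cells (0.58 ± 0.52, adjusted p = 0.363), with GC library 2 highest in both and neither called. Of 17 plasma cell genes 6 rose and 1 fell, led by Slamf7 (1.65 ± 0.11) and Derl3 (1.18 ± 0.32), which encode a surface receptor and an endoplasmic reticulum degradation factor. The J chain gene Igj was not called (adjusted p = 0.094), with 3859.7, 4908 and 3259 RPKM in B-KO GC and 1688, 3443 and 900.3 RPKM in B-KO naive B cells (1.19 ± 0.57; 3.23 ± 0.57 in WT, unadjusted p of the difference 0.027). Each B-KO naive library held more J chain RNA than any WT naive library (137, 481 and 696 RPKM). Without the 3 libraries with Y-linked RNA, 4 plasma cell genes and 7 fate factors fell, and with the Y-linked share as a covariate 4 and 5.

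Chromatin genes followed the GC pattern of both genotypes, 11 of 21 higher and 7 lower. Ezh2, the H3K27 methyltransferase of the polycomb complex, was 603, 493 and 698 RPKM in B-KO GC and 162, 144 and 104 RPKM in B-KO naive B cells (2.13 ± 0.20), and its paralog Ezh1 was 71.0, 87.8 and 70.4 RPKM in B-KO GC and 197, 197 and 197 RPKM in B-KO naive B cells (-1.36 ± 0.093). Phf19 (3.16 ± 0.30), Dnmt1 (1.95 ± 0.18), Cbx2 (1.98 ± 0.19) and Suz12 (1.02 ± 0.079) rose, and Cbx7 (-1.44 ± 0.096), Bmi1 (-1.37 ± 0.14) and Jarid2 (-1.26 ± 0.22) fell. Of 13 MHC class II presentation genes 6 fell, among them H2-Aa (-0.76 ± 0.17), H2-Oa (-0.86 ± 0.13) and the protease Ctss (-1.09 ± 0.15), and Lgmn rose (0.47 ± 0.10). Without the 3 libraries with Y-linked RNA 8 of the 13 fell, and 9 with the Y-linked share as a covariate. Of 20 genes of T cell help 12 fell and 4 rose. Icosl was 500.5, 454 and 392 RPKM in B-KO GC and 1174, 1041 and 1029 RPKM in B-KO naive B cells (-1.27 ± 0.14), and the interleukin 10 receptor gene Il10ra was 166, 276 and 162 RPKM in B-KO GC and 692, 689 and 728 RPKM in B-KO naive B cells (-1.84 ± 0.18). The costimulatory gene Cd86 was 464, 407 and 405 RPKM in B-KO GC and 194, 172 and 157 RPKM in B-KO naive B cells (1.28 ± 0.11). Cd86 was thus raised while Icosl was lowered, as in WT (1.51 ± 0.11 and -1.31 ± 0.14).

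The dark zone list rose in 13 of 15 genes and fell in none, whereas the light zone list rose in 5 of 20 and fell in 4. Immediate early genes, which are induced within minutes of a stimulus, also by tissue handling, rose in 3 of 21 and fell in 2. Nr4a1 was 82.3, 1204 and 54.6 RPKM in B-KO GC and 100.2, 123 and 129 RPKM in B-KO naive B cells (0.59 ± 1.24), and Fos was 456, 874 and 20.6 RPKM in B-KO GC and 30.2, 22.4 and 43.6 RPKM in B-KO naive B cells (2.68 ± 1.49, adjusted p = 0.144). GC library 2 held the most of this RNA, and WT GC library 3 stood out in the same way (Nr4a1 62.4, 53.8 and 1309 RPKM in WT GC). The summed level of the 21 genes was 3102 to 11164 RPKM in B-KO GC libraries and 4861 to 6788 RPKM in B-KO naive libraries. Without GC library 2, 7 light zone genes and 4 immediate early genes fell, and the median of the light zone list was -0.15, against 0.24 with it. Without the 3 libraries with Y-linked RNA these counts were 8 and 11 (6 and 6 with the Y-linked share as a covariate), and without GC library 3 no immediate early gene fell and 5 rose. The part of handling in these values was not tested.

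Interferon-stimulated genes fell in the GC transition of both genotypes, with values nearer to 0 in B-KO. Of 35 genes 23 fell and 3 rose in B-KO, against 31 and 2 in WT, and the median log2 fold change was -1.18 in B-KO and -1.84 in WT. Irf9, a subunit of the factor that binds interferon response elements, was 287, 357 and 248 RPKM in B-KO GC and 491, 577 and 639 RPKM in B-KO naive B cells (-0.94 ± 0.13), against 185, 201 and 219 RPKM in WT GC and 561, 605 and 574 RPKM in WT naive B cells (-1.52 ± 0.13). Irf1 was 509, 776 and 412 RPKM in B-KO GC and 928, 1013 and 853 RPKM in B-KO naive B cells (-0.77 ± 0.22), against 233, 261 and 392 RPKM in WT GC and 811, 903 and 807 RPKM in WT naive B cells (-1.54 ± 0.22). In both genes every B-KO GC library was above every WT GC library. Usp18, a feedback inhibitor of the interferon receptor, was 56.8, 60.2 and 29.7 RPKM in B-KO GC and 43.7, 46.3 and 91.0 RPKM in B-KO naive B cells (-0.28 ± 0.34, adjusted p = 0.495), against 15.8, 15.0 and 27.2 RPKM in WT GC and 72.0, 76.5 and 58.9 RPKM in WT naive B cells (-1.83 ± 0.34). Ifit1, an RNA-binding antiviral protein, was 6.46, 8.62 and 2.81 RPKM in B-KO GC and 9.90, 12.5 and 23.8 RPKM in B-KO naive B cells (-1.25 ± 0.40), against 1.98, 1.58 and 4.08 RPKM in WT GC and 25.0, 18.8 and 19.2 RPKM in WT naive B cells (-2.69 ± 0.40). Usp18 was not called in B-KO and fell in WT, and for Ifit1 B-KO GC library 3 lay within the WT GC range. Among all genes that fell at least 2-fold in WT, 87.1% fell by less in B-KO, a positive difference. In this list the difference between genotypes was positive for 33 of 35 genes (median 0.77), at an unadjusted p under 0.05 for 13 (background 3.37% of all genes) and past the adjusted threshold for none. For Usp18 it was 1.55 (interval 0.50 to 2.60) with an unadjusted p of 0.00791 and an adjusted p of 1, and for Irf9 0.58 (interval 0.17 to 0.98) with an unadjusted p of 0.00936.

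The gap lay in the GC libraries. The median of B-KO minus WT over the 35 genes was 0.79 in GC B cells and 0.0024 in naive B cells. B-KO GC libraries were all above WT GC libraries for 12 of the 35 genes (34.3%), against 6.08% of all genes. The share was alike in the memory B cell list (4 of 12, 33.3%) and among the named miR-146a targets (38.5%). The mean log2 level of the list was 6.07, 6.39 and 5.47 in B-KO GC libraries and 4.93, 5.0 and 5.67 in WT GC libraries, against 6.80, 6.92 and 7.16 in B-KO naive and 6.98, 7.01 and 6.86 in WT naive libraries. B-KO GC library 3 was thus below WT GC library 3. The B-KO GC libraries with the higher levels were 1 and 2, the libraries with Y-linked RNA. Without those and WT GC library 3, 28 of 35 genes fell in B-KO and the median difference was 0.44, with 7 genes at an unadjusted p under 0.05. With the Y-linked share as a covariate 28 genes fell and the median difference was 0.71, with 24 genes. Without B-KO naive library 1 and B-KO GC library 2 it was 0.48, with 5 genes. The difference was thus positive in each of these settings, smaller without either set of libraries and about as large with the covariate. Of 26 genes that fell at least 2-fold in WT, 16 kept and 10 lost their fold change in B-KO. Over all genes that changed at least 2-fold in WT, 89.3% kept and 6.33% lost it. A lost change is one under 0.5 of the WT log2 value, without a test, in genes chosen by that WT value. Members that do not follow the list are Isg20 (0.53 ± 0.20), Psmb8 (0.52 ± 0.069) and Psmb9 (0.50 ± 0.10), an exonuclease and proteasome subunits, which rose.

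GAAA repeated after any 2 bases, the core of the interferon response element, was in 16 of 33 promoters of 27 matched interferon-stimulated genes (48.5%), against 3.44% of all promoters and 3.22% of those of tested genes. The promoter of Ifit1 is shown with this core, which lies on the minus strand, in capitals at 2 places.
Ifit1, chr19:34640639-34640938, plus strand: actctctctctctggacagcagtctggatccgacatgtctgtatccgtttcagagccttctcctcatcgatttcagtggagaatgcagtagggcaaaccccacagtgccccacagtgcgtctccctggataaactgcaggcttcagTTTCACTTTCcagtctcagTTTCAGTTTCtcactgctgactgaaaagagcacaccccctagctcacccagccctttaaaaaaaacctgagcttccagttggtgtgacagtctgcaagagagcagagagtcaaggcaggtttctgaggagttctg

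**Figure D4:**
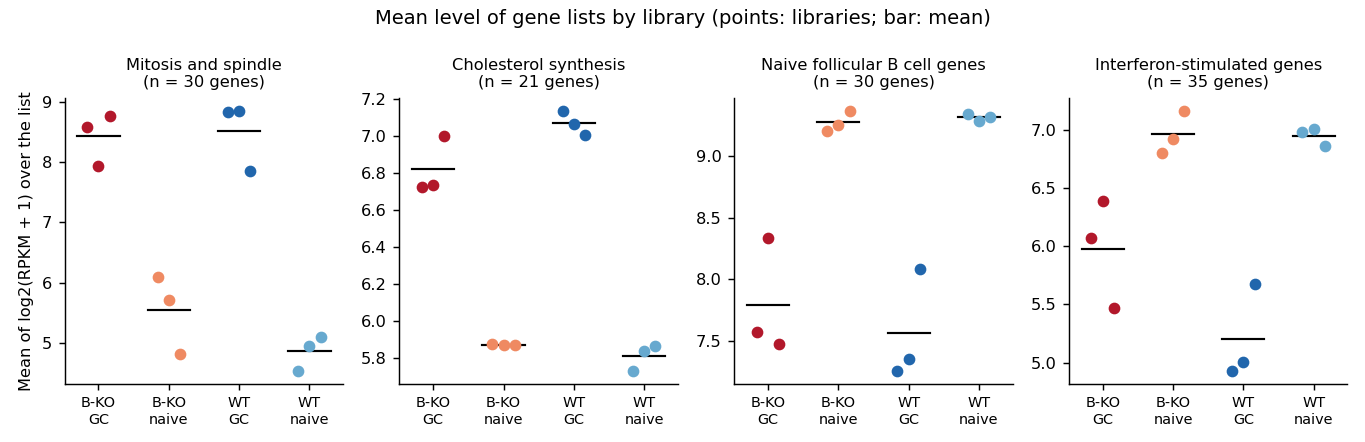
Mean log2(RPKM + 1) of 4 gene lists in each library, with a bar at the group mean. Cholesterol genes are lower in B-KO GC than in WT GC libraries at like naive levels, and interferon-stimulated genes are at 6.07, 6.39 and 5.47 in B-KO GC and 4.93, 5.0 and 5.67 in WT GC libraries.

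The 10 largest rises by the naming rule included, besides S1pr2 and Rgs13, Hbb-bh1, Basp1, Nuggc, Rassf6, H1fx, Arhgap8 and Ackr4. Hbb-bh1, an embryonic β-like globin gene, was 219, 87.2 and 131 RPKM in B-KO GC and 9.71, 7.61 and 2.16 RPKM in B-KO naive B cells (4.37 ± 0.49, adjusted p = 3.99e-05; 5.52 ± 0.49 in WT). It rose while the adult globins fell (Hba-a1 -2.41 ± 0.62, Hbb-bs -2.39 ± 0.67). The erythroid and platelet list, which holds Hba-a1, had a median of -0.82 in B-KO and -0.20 in WT. Of its 15 genes 0 fell without the 3 libraries with Y-linked RNA, and 1 without B-KO naive library 1 and B-KO GC library 2. The part of red cell RNA in the adult globin values was not tested. Nuggc, which encodes a nuclear GTPase of GC B cells, was 1389, 829 and 1252 RPKM in B-KO GC and 133, 76.1 and 27.6 RPKM in B-KO naive B cells (4.09 ± 0.56; 5.94 ± 0.56 in WT). Basp1 was 996, 866 and 1259 RPKM in B-KO GC and 174, 46.3 and 22.6 RPKM in B-KO naive B cells (4.15 ± 0.58; 5.82 ± 0.58 in WT). All of them were highest in naive library 1 within their naive group. Rassf6 (3.97 ± 0.48), the linker histone gene H1fx (3.97 ± 0.66), Arhgap8 (3.91 ± 0.54) and the chemokine scavenger Ackr4 (3.88 ± 0.55) had the same order.

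Several of the largest falls are in genes known from other cells. Siglech, a lectin of mouse plasmacytoid dendritic cells, was 2.01, 3.21 and 2.25 RPKM in B-KO GC and 53.2, 106 and 70.4 RPKM in B-KO naive B cells (-4.43 ± 0.34, adjusted p = 8.82e-06; -4.35 ± 0.34 in WT). Klk1 was 0.42, 1.06 and 0.29 RPKM in B-KO GC and 8.87, 36.7 and 34.1 RPKM in B-KO naive B cells (-3.92 ± 0.49). Of 10 plasmacytoid dendritic cell markers, a list added after these falls were seen, 9 fell and 1 rose, with a summed level of 688 to 1053 RPKM in B-KO GC libraries and 1418 to 1675 RPKM in B-KO naive libraries, and no marker at 0 in a naive library. Siglech is itself a member, so this count was in part fixed in advance. Klra4 (-3.29 ± 0.60), Klra18 (-3.35 ± 0.59) and Klra12 (-3.26 ± 0.57), Ly49 receptors of natural killer (NK) cells whose reads may be shared among near-identical copies, were at 0 to 3.96 RPKM in B-KO GC and at 13.3 to 33.9 RPKM in B-KO naive libraries. Of 12 NK cell markers, also added afterwards, 11 fell, with sums of 25.1 to 129.9 RPKM in B-KO GC and 243 to 417 RPKM in B-KO naive libraries. Klra4 is a member of this list, so its count was likewise in part fixed in advance. Without the 3 libraries with Y-linked RNA 8 NK cell markers fell, and 10 with the Y-linked share as a covariate. The part of other cells in these falls was not tested. Scn2b, a sodium channel subunit, was 0.57, 0.61 and 0.34 RPKM in B-KO GC and 2.10, 66.9 and 62.6 RPKM in B-KO naive B cells (-3.98 ± 1.28, adjusted p = 0.0202), so its naive libraries were far apart, and its call was lost without naive library 2 (adjusted p = 0.081), naive library 3 (0.077) or GC library 3 (0.0512). Crip3 was 2.95, 4.58 and 2.04 RPKM in B-KO GC and 50.5, 51.5 and 45.1 RPKM in B-KO naive B cells (-3.62 ± 0.27), and Pik3ip1, a brake on PI3K, was 24.8, 81.5 and 24.8 RPKM in B-KO GC and 341, 303 and 332 RPKM in B-KO naive B cells (-3.10 ± 0.49). These were alike in all naive libraries. Wfdc17 also fell (-3.25 ± 0.50).

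Markers of other cells moved less evenly. Of 17 myeloid genes 5 rose and none fell, with a summed level of 1436 to 2033 RPKM in B-KO GC and 1048 to 1359 RPKM in B-KO naive libraries. Only 1 rose without the 3 libraries with Y-linked RNA, and 3 with the Y-linked share as a covariate. Likewise, 1 rose without B-KO naive library 1 and B-KO GC library 2. C1qc, a complement subunit made by macrophages, was 128, 52.9 and 7.07 RPKM in B-KO GC and 4.55, 1.69 and 8.31 RPKM in B-KO naive B cells. GC libraries 1 and 2 carried this RNA and library 3 did not, and without library 3 the list had 9 risers, without library 2 it had 2 risers and 1 that fell, without library 1 it had 3 and without naive library 1 or 2 it had 2. Of 15 erythroid and platelet genes 6 fell (1 without B-KO naive library 1 and B-KO GC library 2, none without the libraries with Y-linked RNA, 6 with the Y-linked share as a covariate), with sums of 374 to 530 RPKM in B-KO GC and 1298 to 2375 RPKM in B-KO naive libraries, above the 830 to 1029 RPKM of WT naive libraries. Of 13 T cell genes 3 rose and 3 fell (993 to 1709 RPKM in B-KO GC and 1530 to 1706 RPKM in B-KO naive libraries), and 3 of 16 stromal genes reached the filter. Of 16 marginal zone and B1 genes 6 fell and none rose (10 fell without the libraries with Y-linked RNA, and also with the Y-linked share as a covariate), and of 12 memory B cell genes 7 fell and 1 rose. The riser was Nt5e (CD73), with 287, 306 and 307 RPKM in B-KO GC and 65.3, 44.1 and 16.1 RPKM in B-KO naive B cells (3.02 ± 0.36; 4.46 ± 0.36 in WT). For 4 of the 12 memory genes (33.3%) every B-KO GC library was above every WT GC library, against 6.08% of all genes.

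Most fold changes of the WT transition were kept without miR-146a. Of 3303 genes with at least a 2-fold change in WT, 2948 (89.3%) kept it, that is, were called in the same direction in B-KO with at least 0.5 of the WT log2 fold change (1535 rises and 1413 falls). A further 209 (6.33%) lost it, with less than 0.5 of the WT value (113 rises and 96 falls). Of 2723 genes with at least a 2-fold change in B-KO, 92 (3.38%) were gained, with less than 0.5 of that value in WT. Of the genes called in B-KO, 91.2% were also called in WT in the same direction, and 84.7% of those called in WT were also called in B-KO. No gene was called in opposite directions. Low genes made up much of the lost and gained sets, 142 of 209 lost genes being under 20 RPKM in the mean of both WT groups and 76 of 92 gained genes in the mean of both B-KO groups. The number lost was 345 without B-KO GC library 3 and 326 without B-KO naive library 3, and the number gained was 151 without B-KO GC library 3.

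Among the largest lost changes, Gstt1, a glutathione transferase, was 61.0, 142 and 118 RPKM in B-KO GC and 69.9, 28.5 and 16.5 RPKM in B-KO naive B cells (1.62 ± 0.56), against 88.6, 93.5 and 66.5 RPKM in WT GC and 0.64, 5.30 and 2.17 RPKM in WT naive B cells (4.70 ± 0.56). It was the naive libraries that set the genotypes apart. The difference was -3.08 (interval -4.81 to -1.35), with an unadjusted p of 0.00245 and an adjusted p of 1. Slpi, a secreted protease inhibitor, was 298, 1012 and 413 RPKM in B-KO GC and 548, 341 and 46.6 RPKM in B-KO naive B cells (1.27 ± 0.87), against 421, 332 and 993 RPKM in WT GC and 14.3, 23.4 and 63.5 RPKM in WT naive B cells (4.16 ± 0.87). The sulfotransferase gene Chst1 was 27.5, 131 and 76.7 RPKM in B-KO GC and 38.5, 28.4 and 7.49 RPKM in B-KO naive B cells (1.63 ± 0.71; 4.42 ± 0.71 in WT). Both were high in naive libraries 1 and 2 and lower in 3. S100a9, a neutrophil protein, was 16.4, 196 and 199 RPKM in B-KO GC and 144, 12.3 and 26.9 RPKM in B-KO naive B cells (1.22 ± 1.10; 4.14 ± 1.10 in WT), with overlapping B-KO groups. The largest gained changes were C1qc (2.89 ± 1.07, adjusted p = 0.0383; 0.96 ± 1.07 in WT), Fcna (2.37 ± 0.94; 1.03 ± 0.94) and the iron exporter Slc40a1 (2.05 ± 0.81; 0.78 ± 0.81), genes of macrophages that among B-KO libraries were high in GC libraries 1 and 2 alone, and the RNA 5830444B04Rik (-1.64 ± 0.43; -0.80 ± 0.43).

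The interaction test found little. Past the adjusted threshold were 3 of 13704 genes (0.0219%), all of them microRNA hairpins of 62 to 127 bases with 0 to 2 reads per library, and none of the transcripts of at least 200 bases. These hairpins passed the filter only through the 1 group that held their reads, so their p values do not show a difference. At an unadjusted p under 0.05 there were 462 genes (3.37%), 211 with a higher and 251 with a lower fold change in B-KO. At random p values 0.05 of all genes would be 685. The smallest p values among longer transcripts were those of Slc10a3, Ccrn4l, Gm12250, Tgtp2, Slc43a1, Morn1, Pawr and Gstt1, all with an adjusted p of at least 0.963. Ccrn4l (nocturnin) was 63.1, 78.3 and 86.1 RPKM in B-KO GC and 20.1, 17.1 and 17.5 RPKM in B-KO naive B cells (1.99 ± 0.14), against 99.3, 87.6 and 91.6 RPKM in WT GC and 9.95, 12.6 and 12.6 RPKM in WT naive B cells (2.89 ± 0.14), a difference of -0.90 (interval -1.33 to -0.47). The amino acid transporter Slc43a1 was 77.6, 73.8 and 59.2 RPKM in B-KO GC and 40.2, 46.2 and 40.0 RPKM in B-KO naive B cells (0.72 ± 0.14), against 41.4, 39.4 and 35.2 RPKM in WT GC and 40.1, 36.3 and 50.8 RPKM in WT naive B cells (-0.12 ± 0.14). Slc43a1 rose in B-KO and was not called in WT. Tgtp2, an interferon-inducible GTPase, was 8.55, 10.9 and 6.09 RPKM in B-KO GC and 30.9, 16.6 and 15.5 RPKM in B-KO naive B cells (-1.18 ± 0.26), against 3.09, 3.59 and 4.21 RPKM in WT GC and 29.6, 30.1 and 28.9 RPKM in WT naive B cells (-2.73 ± 0.26). Gm12250, another interferon-inducible GTPase (-1.68 ± 0.16 in B-KO against -2.68 ± 0.16 in WT), and Slc10a3 (-0.38 ± 0.078 against -0.91 ± 0.078) fell in both genotypes, and Pawr (2.83 ± 0.29 against 4.45 ± 0.29) rose in both. Morn1 was not called in B-KO (0.55 ± 0.27 against 2.09 ± 0.27 in WT). Without B-KO naive library 3, Nt5e (-2.0, adjusted p = 0.0143) and Kcnn4 (-0.98, adjusted p = 0.0303) passed, and without B-KO naive library 1 and B-KO GC library 2 Trpm5 (-2.02, adjusted p = 0.0254).

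**Figure D5:**
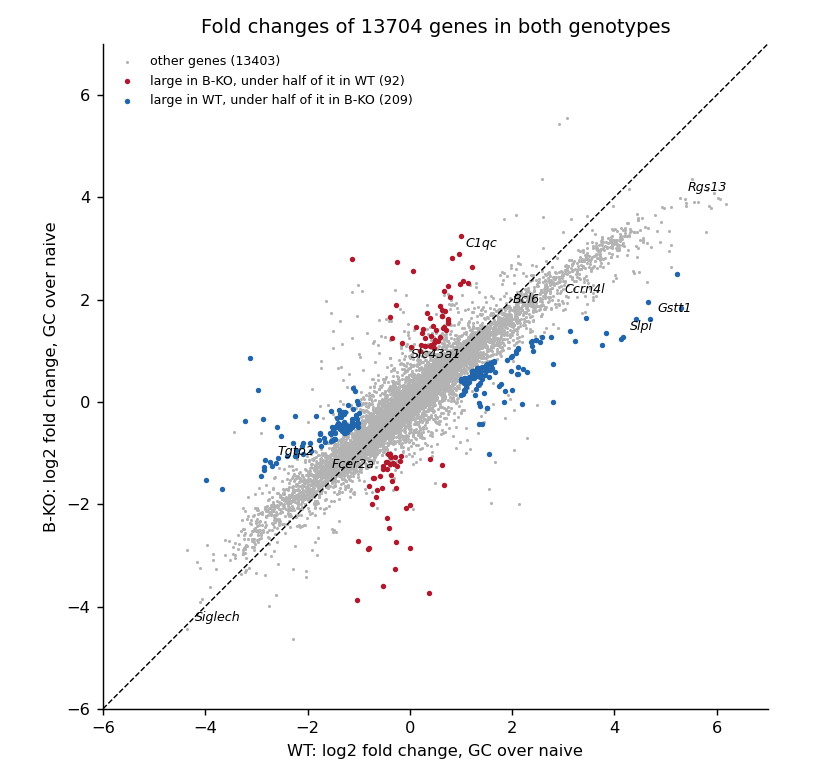
log2 fold change of 13704 genes in B-KO (vertical axis) and WT (horizontal axis), with the line of equal change dashed, the 209 lost changes in blue and the 92 gained changes in red. At large rises the points lie below the line, as for Rgs13 (3.99 in B-KO and 5.29 in WT).

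Across genes the fold changes of both genotypes followed each other, with a smaller size in B-KO. Over the 13704 genes r was 0.931 and the slope of B-KO on WT was 0.789, a description over genes, which are not independent. An r under 1 by itself lowers such a slope. The slope of WT on B-KO was 1.10, and the SD of the log2 fold changes was 0.946 in B-KO and 1.12 in WT. Of the genes that rose at least 2-fold in WT, 90.6% rose by less in B-KO, and the median ratio of the log2 fold changes was 0.821. Since a choice by the WT value favors a larger value there, the same was counted for genes chosen in B-KO, of which 80.1% rose by less in B-KO, with a median ratio of 0.854. An 8-fold change (log2 of at least 3) was reached by 131 rises and 26 falls in B-KO and by 294 rises and 83 falls in WT. For the 294 WT rises the median was 2.89 in B-KO and 3.75 in WT. In these genes B-KO and WT GC libraries differed by -0.071 and B-KO naive libraries were above WT naive libraries by 0.77. For the 83 falls the median was -2.72 in B-KO and -3.22 in WT, with B-KO GC libraries above WT GC libraries by 0.45. The 26 falls chosen in B-KO went the other way, with a median of -3.32 in B-KO and -3.20 in WT and B-KO GC libraries below WT GC libraries by 0.44. For 8-fold falls the direction thus depended on where they were chosen, and for falls of at least 2-fold it did not. Of 1587 such falls chosen in WT, 87.1% were smaller in B-KO, with a median ratio of 0.829. Of 1294 chosen in B-KO, 74.1% were smaller in B-KO, with a median ratio of 0.887. The 131 rises chosen in B-KO had a median of 3.23 in B-KO and 4.12 in WT. With any 1 of the 12 libraries left out the slope was 0.727 to 0.845, and 81.1% to 94.4% of the WT rises were smaller in B-KO. Without B-KO naive library 1 and B-KO GC library 2 the slope was 0.899, the median ratio of rises 0.932 and the 8-fold counts 240 rises and 85 falls. These libraries were picked for their position and from B-KO only, which moves the slope toward 1 by construction. The 8-fold counts moved more than the slope with single libraries. Without naive library 1 alone there were 201 such rises, without naive library 3 only 36, and without GC library 2 there were 176 rises and 76 falls. Without the libraries with Y-linked RNA the slope was 0.834, and with the Y-linked share as a covariate 0.822.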

How the data were processed

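Naive and GC B cells of B-KO and WT mice were sequenced in 12 libraries, 3 per group. The authors deposited RPKM values for 33072 transcripts, made with HOMER (version not given in the sources used here) after alignment with STAR 2.2.0c, on both strands, so a gene and its antisense or overlapping partner cannot be told apart. The header names mm10, and the processing notes list mm9 as well. The labels name total RNA and the methods poly-A RNA.

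RPKM times length gave whole reads within 0.1 for all values (22945634 to 39118224 per library), and 37.6% of the reads summed over all transcripts lay on other transcripts of the same symbols than the one kept, which was the one with the highest mean. limma 3.58.1 in R 4.3.3 (lmFit, eBayes with trend) was fitted to log2(RPKM + 1) of 13704 genes over all 12 libraries with 4 group means, two-sided, with Benjamini-Hochberg adjustment over all genes and a threshold of 0.05. The scripts were tested on simulated data. No column of the authors' own comparisons was used.

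Genes were named by rule: Bcl6, Fcer2a, the 10 largest rises and 10 largest falls, the 8 smallest p values of the difference between genotypes, and the 4 largest lost and 4 largest gained changes, among transcripts of at least 200 bases and 20 RPKM, besides members of the gene lists. The members and lists were chosen with earlier results of these data known. Alternatives covered the pseudocount, the filter, scaling, weights, replicate block, voom and each library left out. Some of the genes so named are not reported here.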

Additional observations from a re-analysis of the deposited data

Results flagged for a closer look

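The difference of the GC transition between B-KO and WT, tested for all genes, passed the adjusted threshold for 3 short microRNA hairpins. Each had 3 or 4 reads over the 12 libraries, all in 1 group, and passed the filter only through that group. The small p values therefore do not show a difference between genotypes. Mir24-1 (67 bases) differed by -2.81 on the log2(RPKM + 1) scale, with 0 reads in all B-KO libraries and 2, 1 and 1 reads in WT GC libraries (adjusted p = 0.0172, limma). Mir7074 (62 bases) differed by -2.85 (adjusted p = 0.00246, limma) and Mir6345 (127 bases) by -2.01 (adjusted p = 0.0274, limma), both with 1 read in each B-KO naive library and none in any other library. No group of these data was large enough for a test of single outlying libraries.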

How the results depend on the processing

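The counts of genes called stayed within 1.5 times of those given, over all settings, with 3620 to 4520 higher and 3244 to 4365 lower in B-KO and 3795 to 4887 higher and 3641 to 4768 lower in WT. With 1 library left out, 3709 to 4034 genes were higher and 3244 to 3805 lower in B-KO, and 3918 to 4328 and 3664 to 4108 in WT. Over the same settings kept changes numbered 2765 to 3199, lost 167 to 345 and gained 83 to 151, and the difference test called 0 to 1 genes with a higher and 1 to 4 with a lower fold change in B-KO. Lost changes were 316 with a pseudocount of 0.1, 46 with a pseudocount of 10 (1806 kept and 17 gained), 94 with at least 10 RPKM in 3 libraries (30 gained), 317 with array quality weights (198 gained) and 336 with voom on the recovered reads. The difference test called 1 gene with a lower fold change under a pseudocount of 10 and under the replicate block, and 0 with at least 10 RPKM, with transcripts of at least 200 bases and with voom. Without the 3 libraries with Y-linked RNA, a setting chosen after seeing the data, it called 1 higher and 0 lower. The Ms4a1 fold change, not called in B-KO, was -0.0403 with weights, -0.0033 with voom, -0.1368 to 0.1411 with 1 library left out and -0.1308 without B-KO naive library 1 and B-KO GC library 2, also chosen after seeing the data. The Fcna difference was -0.3883 without the libraries with Y-linked RNA. The cause of these moves was not tested, except that a higher pseudocount shrinks low genes and a higher filter removes them by construction. Libraries of the same number did not deviate together (r -0.142 to 0.018). With 3 libraries per group this cannot exclude a pairing, and the labels do not say what the numbers stand for. The replicate block gave 3944 higher and 3590 lower genes in B-KO. Scn2b was the one gene of the 20 largest changes that lost its call under voom. Depth limits genes of few reads, such as the short hairpins.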
